A study of Homo sapiens with 12 samples.

Results

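The data here are the levels of 34 lysosome and autophagy genes in MDA-MB-231, an established human line derived from a breast carcinoma, grown as monolayers in 6 culture conditions. The genes were taken as a list of symbols covering lysosomal membrane proteins, hydrolases, lipid carriers, the transcription factor TFEB and autophagy proteins. Each symbol was read from the authors' log2 table by its brightest probe, the one with the highest mean over the 12 arrays. All 34 were found among the 31334 gene symbols of the array. The reference condition was MEM (minimum essential medium) with 10% fetal bovine serum (FBS) at 90% confluence, called reference MEM below. DMEM (Dulbecco's modified Eagle's medium) and RPMI-1640 were each used with 10% FBS at 90% confluence. The remaining 3 conditions were all in MEM, and are called horse serum (10% horse serum, 90% confluence), low serum (0.1% FBS, 90% confluence) and 50% confluence (10% FBS). Every medium was supplemented alike with glutamine, pyruvate, amino acids, vitamins and antibiotics. Each condition had 2 arrays, which the labels number but do not describe as separate cultures, so the p-values measure the spread between arrays, which may be technical.

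Lysosomes are acidic organelles in which hydrolases break down proteins, glycans and lipids delivered by endocytosis or by autophagy. In autophagy, a double membrane closes around cytoplasm and then fuses with the lysosome. The kinase complex mTORC1, which senses amino acids and growth factors, holds TFEB and its relatives TFE3 and MITF in the cytoplasm. When mTORC1 is less active these factors enter the nucleus and bind E-boxes, short DNA motifs with the core CACGTG, near many lysosomal genes.

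RNA levels had been read on Illumina HumanHT-12 bead arrays, and all levels below are log2 signals normalized by quantiles between the arrays, so they are relative to the other probes of the array. Levels of different genes come from different probes and are not set against each other. The 463 olfactory receptor probes gave the background of an array, as their 95th percentile, which lay between 6.90 and 6.99 on the log2 scale, and 16685 to 20065 probes per array were above it. The reference MEM arrays stood apart. Over all probes they correlated at 0.914 to 0.940 with arrays of the other conditions, while the other 5 conditions correlated at 0.964 to 0.991 with each other and arrays of 1 condition at 0.987 to 0.996. Of 5 markers of a mesenchymal breast carcinoma line, 4 were above background on all arrays, and KRT8 was so on 3 arrays, with a mean of 10.04 in reference MEM and 6.58 to 6.89 elsewhere. Of 7 melanocyte-lineage markers, MITF, SOX10 and DCT were also above background on all arrays. TYR was so on 9 arrays, MLANA on 2, SILV on 1 and TYRP1 on 0. What this says of the cells' identity was not tested. The blood cell list had 1 of 8 markers above background on all arrays (CD68, itself a lysosomal membrane protein), the luminal breast list 1 of 7 and the fibroblast list 0 of 6. A single limma model of all 12 arrays gave every difference between conditions, and a gene was called where its p, adjusted by Benjamini-Hochberg over 47231 probes, was under 0.05. The methods' t-test, run on the same values with only the arrays compared, left far fewer calls, 0 to 6 genes per comparison at P under 0.001. After Benjamini-Hochberg it left 0 or 1, so the calls below rest on the spread that limma shares between probes. With limma fitted to only the arrays compared, 8 to 24 genes were called per comparison, beside 7 to 22 in the fit of all arrays. Errors of differences are standard errors of this fit with 2 arrays per condition.

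Most of these genes were expressed and varied with the culture condition. Of the 34 genes, 30 were above background on all 12 arrays. GAA, the acid α-glucosidase that degrades glycogen, was above background on 10 arrays and below it on both arrays at 50% confluence. CTSK, a collagen-degrading cathepsin known from osteoclasts, was above background on 1 array of low serum, and CTSS, a cathepsin of antigen-presenting cells, and TFEB on 0 arrays. By limma's F test over the 6 conditions 29 of 34 genes were called, against 30.1% of all probes. Among the 9641 gene symbols above background on all arrays 82.9% were called, and 28 of the 30 genes above background on all arrays, so the share of called genes was close to that of expressed genes in general. The 5 genes not called were CTSK, CTSS, TFEB, HEXA (the α subunit of β-hexosaminidase A, adjusted p = 0.247) and SQSTM1 (the autophagy receptor p62, adjusted p = 0.0788 by limma). With the mean of reference MEM left out of the F test and its arrays kept in the estimate of the spread, 23 of 34 genes were called over the other 5 conditions, against 19.9% of all probes and 60.0% of expressed symbols. With those arrays left out of the fit too, 21 were called.

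Among the 5 conditions other than reference MEM, 50% confluence was most often the lowest. Of the 31 genes above background on both arrays of some condition, 18 had their lowest mean of the 5 conditions other than reference MEM at 50% confluence, and 0 had their highest there. Over the 15039 gene symbols that passed the same limit, 50% confluence was lowest of the 5 in 20.2% and highest in 19.0%. Low serum was the highest of the 5 for 12 genes, horse serum for 8, DMEM for 9 and RPMI-1640 for 2, beside 24.6%, 21.5%, 21.3% and 13.6% of all symbols. With reference MEM included, that condition was the lowest for 15 genes and the highest for 7, beside 30.2% and 31.8% of all symbols, and 50% confluence was the lowest for 10. No test was made on these orders.

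**Figure D1:**
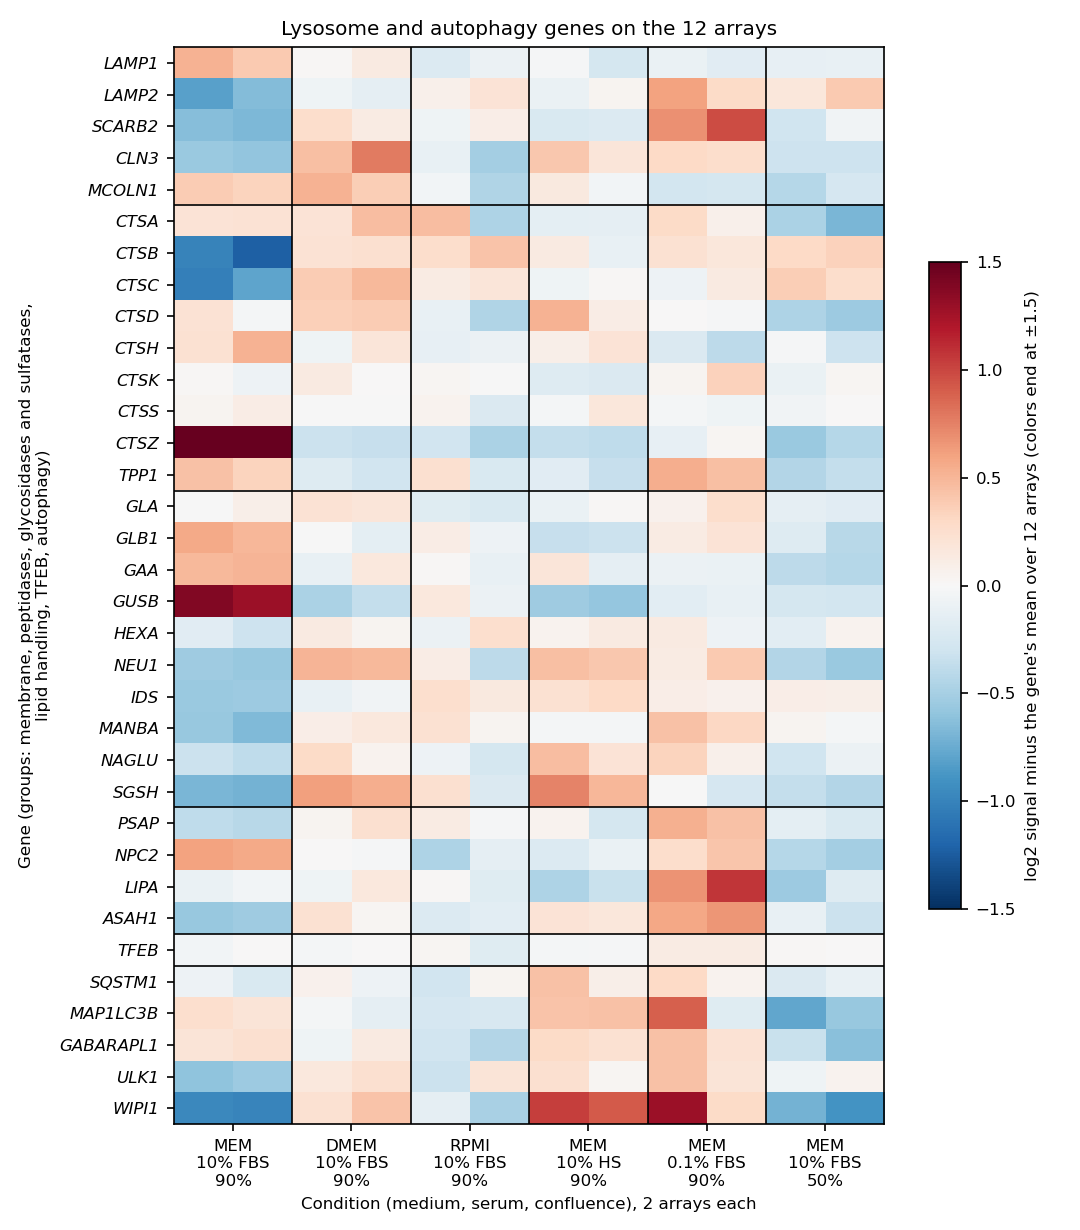
Log2 signal of the 34 genes on the 12 arrays (columns, 2 per condition), each as its difference from the gene's mean over the 12 arrays; rows are grouped by role and colors end at ±1.5. In reference MEM, at the left, CTSZ and GUSB stand far above their means and CTSB, CTSC, LAMP2 and WIPI1 far below, and at 50% confluence, at the right, most rows are at or below their means.

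Some of these promoters carry the E-box core. RefSeq promoter windows (GRCh38.p14, 250 bases before to 50 after a gene's start) were at hand for 24 of the 34 genes. The table used has no entry for ASAH1, CTSB, CTSK, CTSS, HEXA, LAMP2, MANBA, NAGLU, PSAP and SGSH. The 24 genes had 32 windows, as 5 of them had several. The motif CACGTG, which reads the same on both strands, was found for 7 of the 24 genes, CLN3, CTSA, CTSD, GAA, LAMP1, MCOLN1 and NEU1. By window it was in 8 of the 32 and in 7.26% of all 35116. The form TCACGTG, searched on both strands and containing the first, was in the same 7 genes and in 3.71% of all windows. Of other motifs, TGATGNAAT (the response element of ATF4) was in 0 of the 32 windows and in 0.991% of all. TGACNNNGC (the antioxidant response element) was found for 10 of the 24 genes, by window in 10 of the 32 and in 13.4% of all. LAMP1 held 6 copies of CACGTG, and 1 of all 35116 windows held 6 or more. The following 30-base stretches, 5′ to 3′ on the gene's strand with CACGTG in capitals, are shown for the genes of this group whose levels are described below.
LAMP1, chr13:113297051-113297080, plus strand: tgggtccagggtCACGTGccgctgcgggtc
LAMP1, chr13:113297199-113297228, plus strand: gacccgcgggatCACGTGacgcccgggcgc
MCOLN1, chr19:7522598-7522627, plus strand: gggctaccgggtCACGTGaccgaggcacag
CLN3, chr16:28492058-28492087, minus strand: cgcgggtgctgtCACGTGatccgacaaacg
CTSD, chr11:1763957-1763986, minus strand: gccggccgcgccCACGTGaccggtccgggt
NEU1, chr6:31862930-31862959, minus strand: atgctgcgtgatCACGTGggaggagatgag
GAA, chr17:80101493-80101522, plus strand: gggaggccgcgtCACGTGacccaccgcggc
CTSA, chr20:45891298-45891327, plus strand: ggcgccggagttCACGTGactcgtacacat
A match is a description of these letters and shows no binding.

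The membrane proteins did not move as 1 group. LAMP1, a major glycoprotein of the lysosomal membrane, read 11.86 and 11.72 in reference MEM, 11.36 and 11.47 in DMEM, 11.13 and 11.25 in RPMI-1640, 11.31 and 11.06 in horse serum, 11.23 and 11.17 in low serum, and 11.22 and 11.22 at 50% confluence. Both reference MEM arrays were above all 10 others, and among the other 5 conditions the means differed by at most 0.22 (limma's F test, adjusted p = 0.441). LAMP2, its sister protein, of which 1 isoform takes in proteins for chaperone-mediated autophagy, ran the other way. It read 10.51 and 10.67 in reference MEM, 11.26 and 11.18 in DMEM, 11.40 and 11.52 in RPMI-1640, 11.22 and 11.36 in horse serum, 11.93 and 11.62 in low serum, and 11.49 and 11.72 at 50% confluence. Reference MEM was below all others, and the arrays of low serum and 50% confluence overlapped. The brightest LAMP2 probe differed by 0.17 ± 0.12 between these last conditions (limma, adjusted p = 0.535), while 3 of its 4 other probes were called higher in low serum, by 0.62 to 0.93 on the log2 scale.

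SCARB2, which carries glucocerebrosidase to the lysosome, read 9.95 and 9.91 in reference MEM, 10.86 and 10.71 in DMEM, 10.52 and 10.69 in RPMI-1640, 10.36 and 10.38 in horse serum, 11.28 and 11.56 in low serum, and 10.29 and 10.53 at 50% confluence. Low serum was above and reference MEM below every other array. The difference from 50% confluence was 1.01 ± 0.12 in favor of low serum, or 2.01-fold (limma, adjusted p = 2.58e-05), and from reference MEM it was 2.81-fold (adjusted p = 7.56e-08). CLN3, a membrane protein lost in juvenile neuronal ceroid lipofuscinosis, was highest in DMEM, at 9.20 and 9.53, against 8.19 and 8.16 in reference MEM. It read 8.64 and 8.24 in RPMI-1640, 9.16 and 8.94 in horse serum, 9.05 and 9.02 in low serum, and 8.44 and 8.44 at 50% confluence. The DMEM arrays lay above all others, and those of horse serum and low serum overlapped. MCOLN1, the lysosomal calcium channel TRPML1, had its highest mean in DMEM, at 8.37, and means between 7.59 and 8.28 in the other conditions. Its DMEM arrays, at 8.45 and 8.30, overlapped those of reference MEM, at 8.30 and 8.26, and it was not called between these conditions.

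Among the cathepsins and other peptidases, CTSZ, CTSB and CTSC had the widest ranges, and in each case reference MEM stood apart. CTSZ, a carboxypeptidase, read 9.74 and 9.73 in reference MEM, 7.80 and 7.77 in DMEM, 7.83 and 7.64 in RPMI-1640, 7.76 and 7.74 in horse serum, 7.99 and 8.15 in low serum, and 7.56 and 7.68 at 50% confluence. Reference MEM was thus higher than each other condition by 1.66 to 2.11 on the log2 scale, while the other 10 arrays lay within 7.56 to 8.15. The levels of CTSB, a cysteine protease linked to matrix breakdown, were the reverse. CTSB read 9.51 and 9.29 in reference MEM, 10.73 and 10.75 in DMEM, 10.77 and 10.94 in RPMI-1640, 10.65 and 10.40 in horse serum, 10.74 and 10.68 in low serum, and 10.81 and 10.86 at 50% confluence. Over the 5 conditions other than reference MEM its F test was not called (limma, adjusted p = 0.196). A second CTSB probe had differences of the same sign but was not called for density (-0.24, adjusted p = 0.303 by limma), serum amount (-0.30, adjusted p = 0.152) or RPMI-1640 against MEM (0.24, adjusted p = 0.307), so the size of the CTSB difference depends on the probe.

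CTSC, the dipeptidyl peptidase that activates granule serine proteases, read 9.37 and 9.61 in reference MEM and 10.78 and 10.89 in DMEM. Its other arrays read 10.52 and 10.58 in RPMI-1640, 10.34 and 10.42 in horse serum, 10.32 and 10.54 in low serum, and 10.77 and 10.66 at 50% confluence. Reference MEM was again below all others, and CTSC had the lowest difference of the 34 genes in low serum minus 50% confluence, though it was not called (-0.29 ± 0.11, adjusted p = 0.124 by limma). Another CTSC probe, above background on all 12 arrays, was called lower there (-0.39, adjusted p = 0.0448 by limma). The remaining CTSC probes were not called. CTSD, the main aspartic protease of the lysosome, read from 9.69 at 50% confluence to 10.77 in horse serum. TPP1, a tripeptidyl peptidase, read from 9.34 at 50% confluence to 10.32 in low serum, CTSA, the carboxypeptidase that protects β-galactosidase and sialidase, from 9.08 to 10.22, and CTSH, an aminopeptidase, from 8.63 to 9.53. The 2 RPMI-1640 arrays of CTSA stood 0.93 apart. CTSK and CTSS stayed between 6.25 and 7.06.

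Of the 10 glycosidases and sulfatases, GUSB, NEU1 and SGSH spanned the widest ranges of means. GUSB, β-glucuronidase, often used as a housekeeping gene in PCR assays, read 10.69 and 10.59 in reference MEM, 8.84 and 8.96 in DMEM, 9.47 and 9.22 in RPMI-1640, 8.78 and 8.73 in horse serum, 9.15 and 9.20 in low serum, and 9.05 and 9.03 at 50% confluence. Reference MEM was 2.46 to 3.71-fold above the other conditions, and RPMI-1640 had the next highest mean (F test over the other 5 conditions, adjusted p = 0.00289 by limma). SGSH, the sulfamidase of heparan sulfate, read 8.59 and 8.57 in reference MEM, 9.89 and 9.82 in DMEM, 9.52 and 9.06 in RPMI-1640, 10.02 and 9.78 in horse serum, 9.28 and 9.02 in low serum, and 8.92 and 8.84 at 50% confluence. The DMEM and horse serum arrays overlapped each other and lay above all the rest. NEU1, the lysosomal sialidase, had means of 9.49 in DMEM, 9.42 in horse serum and 9.25 in low serum, against 8.85 in RPMI-1640, 8.49 at 50% confluence and 8.44 in reference MEM. MANBA (β-mannosidase), IDS (the sulfatase of iduronate) and NAGLU (a glucosaminidase of heparan sulfate) were each lowest in reference MEM, at means of 7.26, 8.01 and 7.82. GLB1, β-galactosidase, and GAA were each highest there, at 9.88 and 7.65. GLA, α-galactosidase A, and HEXA varied least of the 10, with ranges of means of 0.40 and 0.33.

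All 4 lipid-handling genes were called higher in low serum than at 50% confluence, and 3 of them were highest of all conditions in low serum. LIPA, the acid lipase that frees cholesterol and fatty acids from lipoprotein esters, read 9.21 and 9.26 in reference MEM, 9.24 and 9.46 in DMEM, 9.32 and 9.12 in RPMI-1640, 8.85 and 8.97 in horse serum, 9.98 and 10.38 in low serum, and 8.76 and 9.12 at 50% confluence. Both low serum arrays were above all 10 others. LIPA was 2.36-fold higher in low serum than at 50% confluence (limma, adjusted p = 2.73e-05), 1.92-fold higher than in reference MEM (adjusted p = 9.25e-05) and 2.40-fold higher than in horse serum (adjusted p = 3.04e-05). ASAH1, acid ceramidase, read 7.15 and 7.17 in reference MEM, 7.95 and 7.74 in DMEM, 7.51 and 7.55 in RPMI-1640, 7.92 and 7.89 in horse serum, 8.30 and 8.38 in low serum, and 7.61 and 7.40 at 50% confluence. Low serum was above and reference MEM below all other arrays, though a dimmer second probe had no higher level in low serum than at 50% confluence. PSAP, the precursor of the saposins that present lipids to their hydrolases, was highest in low serum, with a mean of 13.54, and lowest in reference MEM, at 12.66. NPC2, the soluble carrier of lysosomal cholesterol, had means of 12.37 in reference MEM and 12.12 in low serum, against 11.32 to 11.78 in the other 4 conditions.

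TFEB itself was not detected. Its single probe read 6.69 and 6.73 in reference MEM, 6.70 and 6.74 in DMEM, 6.76 and 6.54 in RPMI-1640, 6.70 and 6.71 in horse serum, 6.85 and 6.85 in low serum, and 6.74 and 6.73 at 50% confluence, all below background. TFEB is controlled mainly by where the protein sits in the cell, which these arrays do not measure. Its relative MITF was above background on all arrays, with means of 9.75 in low serum, 9.02 in DMEM, 8.54 in RPMI-1640, 8.18 in horse serum, 7.92 at 50% confluence and 7.63 in reference MEM. In low serum MITF was 1.83 ± 0.23 above 50% confluence (limma, adjusted p = 5.15e-05) and the difference of reference MEM from low serum was -2.12 ± 0.23 (adjusted p = 2.47e-06).

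The autophagy genes WIPI1 and MAP1LC3B had the widest spread between arrays of 1 condition. WIPI1, which binds the lipid mark of the forming autophagosome, read 8.70 and 8.68 in reference MEM, 9.91 and 10.10 in DMEM, 9.54 and 9.19 in RPMI-1640, 10.71 and 10.59 in horse serum, 10.95 and 9.96 in low serum, and 8.96 and 8.78 at 50% confluence. The arrays of horse serum, low serum and DMEM were above all others, and reference MEM below them. WIPI1 was 3.00-fold higher in low serum than at 50% confluence (1.59 ± 0.22, adjusted p = 0.000131 by limma), with differences of 1.09 and 2.08 when the first or the second low serum array was left out. MAP1LC3B, which encodes the LC3B protein bound to autophagosome membranes, read 9.83 and 9.78 in reference MEM, 9.55 and 9.44 in DMEM, 9.33 and 9.34 in RPMI-1640, 10.01 and 10.02 in horse serum, 10.48 and 9.40 in low serum, and 8.80 and 9.01 at 50% confluence. Its low serum arrays stood 1.08 apart and spanned the values of all other conditions but 50% confluence and RPMI-1640, which lay below both. MAP1LC3B in low serum was 1.03 ± 0.22 above 50% confluence (adjusted p = 0.00486 by limma), and 0.49 or 1.57 with 1 low serum array only. GABARAPL1, a relative of LC3, had means of 8.39 in low serum, 8.32 in horse serum and 8.28 in reference MEM, and 7.58 at 50% confluence. ULK1, the kinase that starts autophagy, was lowest in reference MEM, at 8.32, and between 8.83 and 9.21 elsewhere. SQSTM1 had means of 12.74 to 13.17.

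**Figure D2:**
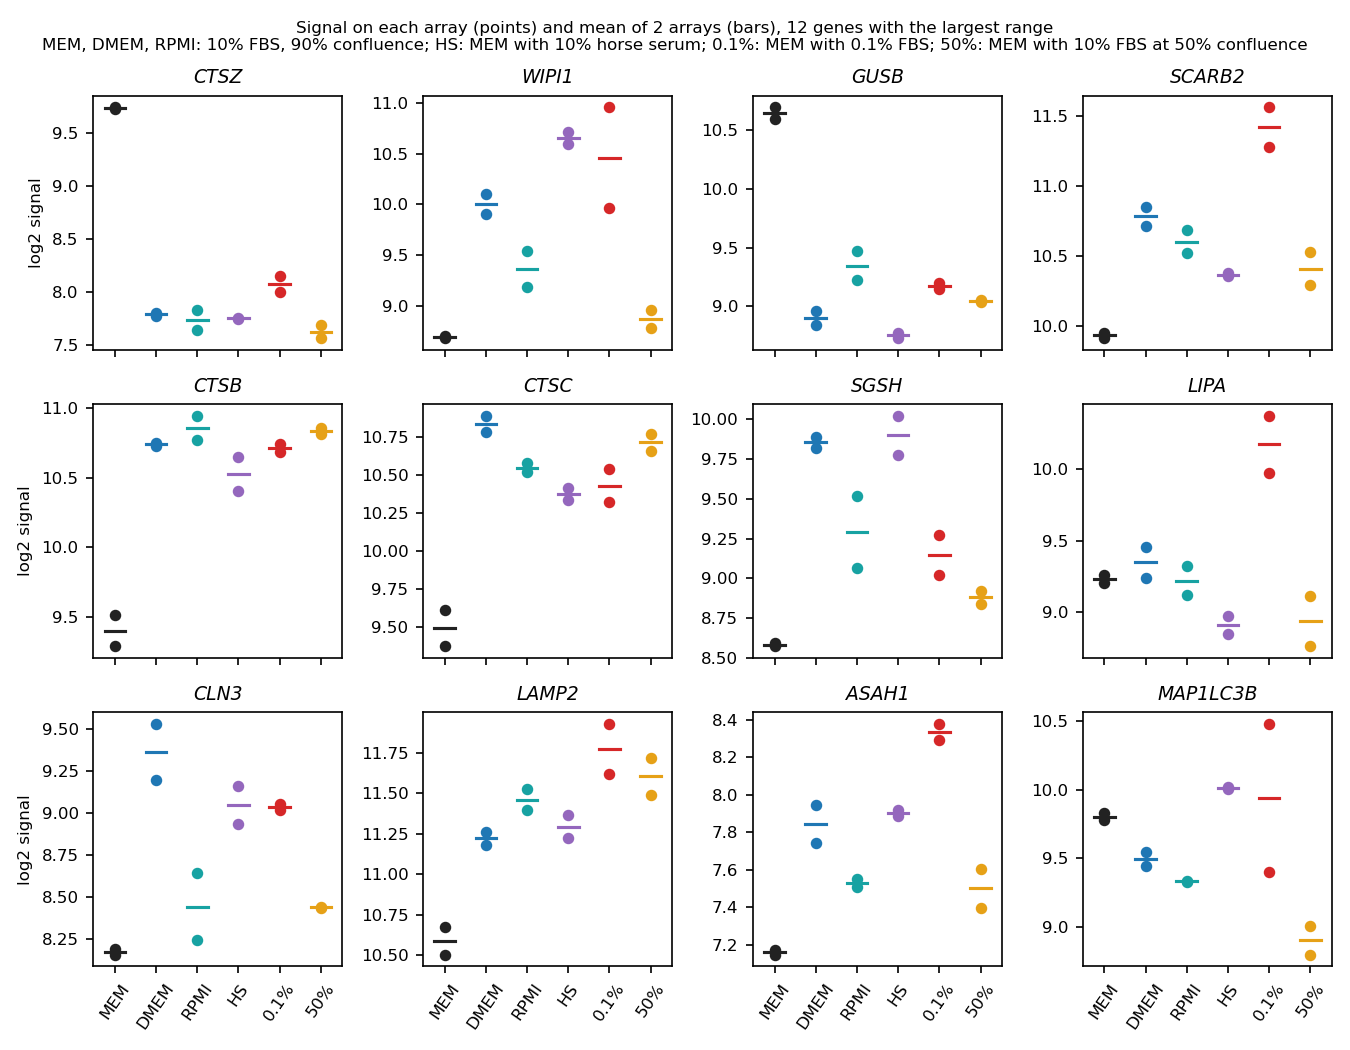
Log2 signal of the 12 genes with the largest range of condition means; each point is 1 array, each bar the mean of 2 arrays, and vertical scales differ between panels and do not start at 0. Reference MEM (black) is separate from all other arrays in every panel but LIPA and MAP1LC3B, low serum (red) is highest for SCARB2, LIPA and ASAH1, and the 2 low serum points are far apart for WIPI1 and MAP1LC3B.

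The comparison of low serum at 90% confluence with 10% FBS at 50% confluence took no mean from the reference MEM arrays, which entered only the spread estimated by the fit. Apart from reference MEM, low serum was most often the highest condition and 50% confluence the lowest, so the counts here partly restate the orders above. DMEM, RPMI-1640 and horse serum were not compared with 50% confluence. With only the 4 arrays compared in the fit, 15 genes were called. In the fit of all arrays the called genes, each read by its brightest probe, differed in 1 direction. Of the 34 genes 17 were called higher in low serum and 0 lower. A further CTSC probe, not the brightest, was called lower (-0.39, adjusted p = 0.0448 by limma). Over all probes 5.43% were called higher and 5.39% lower, and among expressed symbols 16.7% and 17.9%. All 17 were among the 30 genes above background on all arrays. In the comparisons below the called genes outside those 30 were GAA, in each of the 5 with reference MEM, and CTSK. The median difference of the 34 genes was 0.36, beside 0.00 over all symbols, and the called genes came from every role but TFEB's. All 4 lipid-handling genes were called, 3 of 5 autophagy genes, 4 of 10 glycosidases and sulfatases, 4 of 9 peptidases and 2 of 5 membrane proteins. The largest differences were those of WIPI1, LIPA, MAP1LC3B and SCARB2 given above, followed by TPP1 (0.89 ± 0.13, adjusted p = 0.000203) and ASAH1 (0.84 ± 0.10, adjusted p = 4.36e-05 by limma). GLA, at 0.31 ± 0.10, was closest to the threshold (adjusted p = 0.0485). Below it, NAGLU, SQSTM1, ULK1 and GAA had differences of 0.40, 0.34, 0.32 and 0.32 that were not called, with adjusted p of 0.058 to 0.221, GAA at 50% confluence being below background. The calls of CLN3, CTSA, CTSD, CTSZ, GLA, GLB1, MANBA and MAP1LC3B were lost when some array was left out (adjusted p up to 0.346, for GLA without the second low serum array), and the count was 10 without the first array at 50% confluence. The methods' t-test at P under 0.001 called 0 genes here. Serum and confluence both differ between these conditions and cannot be told apart here. The summed signal of the 7 melanocyte-lineage markers moved with this comparison, from 11.30 to 11.39 at 50% confluence to 12.90 to 13.24 in low serum on the log2 scale. Signals were summed before the logarithm, so the brightest markers, SOX10 and DCT, weigh most. DCT had means of 9.29 at 50% confluence and 12.28 in low serum, and SOX10 of 10.35 and 10.75. The part of these markers in the result was not tested.

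**Figure D3:**
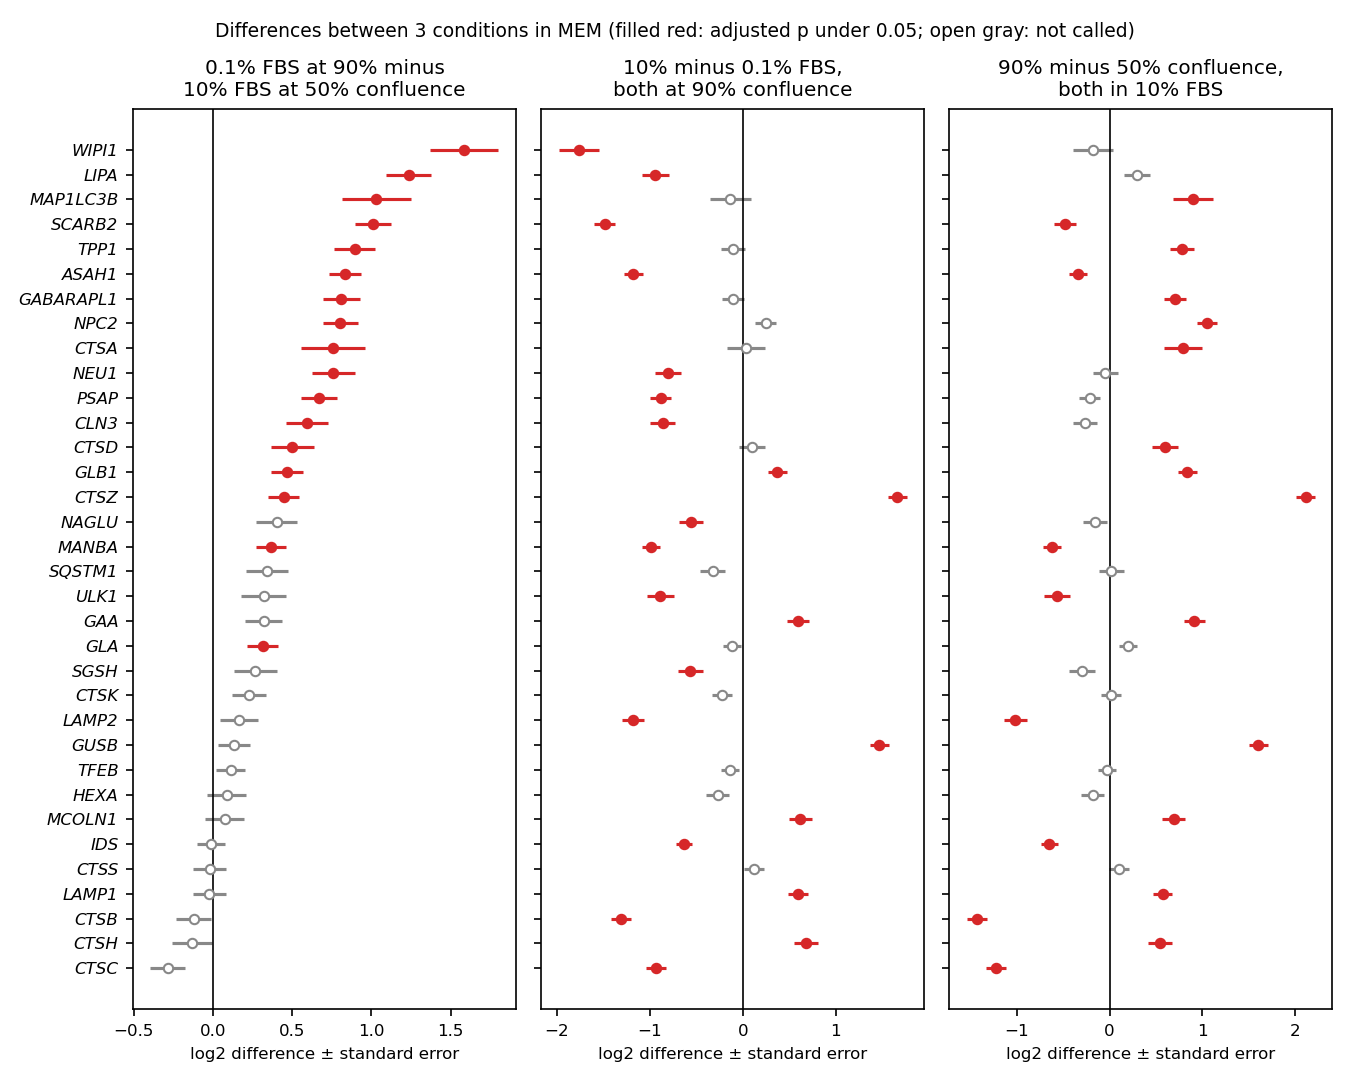
Log2 differences of the 34 genes (points) with the standard error of the fit (bars) for low serum minus 50% confluence, 10% minus 0.1% FBS, and 90% minus 50% confluence; filled red points are called at an adjusted p under 0.05. In the left panel all 17 called genes lie right of 0, while in the other panels, which share the reference MEM arrays, called genes lie on both sides.

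Serum amount at 90% confluence was compared between reference MEM (10% FBS) and low serum (0.1% FBS). More of the genes were lower than higher in 10% FBS, with 15 of 34 called lower and 7 higher, against 10.9% and 11.5% of all probes and 32.4% and 28.7% of expressed symbols. The median difference was -0.25, beside 0.00 over all symbols. Lower in 10% FBS were WIPI1 (3.40-fold, adjusted p = 1.10e-05), SCARB2, CTSB (2.48-fold, adjusted p = 1.74e-07), LAMP2 (2.27-fold, adjusted p = 1.47e-06) and ASAH1 (2.26-fold, adjusted p = 2.43e-07 by limma), with CLN3, CTSC, IDS, LIPA, MANBA, NAGLU, NEU1, PSAP, SGSH and ULK1. Higher in 10% FBS were CTSZ (3.17-fold, adjusted p = 3.50e-09) and GUSB (2.77-fold, adjusted p = 1.83e-08), with CTSH, GAA, GLB1, LAMP1 and MCOLN1. The calls of GLB1, NAGLU and SGSH were lost when 1 array was left out, with adjusted p up to 0.126 for GLB1 without the first reference MEM array. NAGLU (0.0513) and SGSH (0.0695) lost theirs without the first low serum array. The direction of MAP1LC3B, which was not called (-0.13 ± 0.22, adjusted p = 0.808), turned with that array, to a called 0.40. The melanocyte-lineage sum was 10.59 to 10.75 in reference MEM and 12.90 to 13.24 in low serum, and its part in these differences was not tested.

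Serum kind was compared between 10% FBS and 10% horse serum in MEM at 90% confluence. In FBS 14 of 34 genes were lower and 7 higher, against 10.4% and 11.5% of all probes and 32.0% and 26.1% of expressed symbols, with a median difference of -0.22. WIPI1 was 3.89-fold lower in FBS (-1.96 ± 0.22 on the log2 scale, adjusted p = 4.46e-06), SGSH 2.49-fold (adjusted p = 2.23e-06), CTSB 2.18-fold (adjusted p = 1.19e-06) and NEU1 1.97-fold (adjusted p = 4.46e-05 by limma). GUSB was 3.71-fold and CTSZ 3.96-fold higher in FBS, as were TPP1, NPC2, GLB1, GAA and LAMP1 by 1.40 to 1.82-fold. SQSTM1 was called only narrowly (-0.41 ± 0.14, adjusted p = 0.0405) and lost its call in 7 of the 12 removals of 1 array (limma, adjusted p up to 0.390 with a difference of -0.23, without the first horse serum array). SCARB2 lost its call without either reference MEM array or the second horse serum array, and GAA without the second horse serum array (adjusted p up to 0.0814 and 0.101). The summed melanocyte-lineage signal was 10.59 to 10.75 in FBS and 11.09 to 11.30 in horse serum. Of its markers SOX10 had means of 8.25 and 9.95 and DCT of 9.16 and 9.29, while TYR went the other way, at 7.83 and 6.89. The part of these markers in the differences was not tested.

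Horse serum and low serum were also set against each other, again with the reference MEM arrays entering only the estimate of the spread. In horse serum 12 of 34 genes were lower and 2 higher than in low serum, against 6.03% and 5.52% of all probes and 16.0% and 17.2% of expressed symbols. The lower genes included all 4 lipid-handling genes (1.35 to 2.40-fold), SCARB2 (2.07-fold, adjusted p = 2.46e-05) and TPP1 (1.69-fold, adjusted p = 0.000995 by limma). LAMP2, GLB1, GUSB, MANBA and CTSZ were lower by 1.25 to 1.41-fold. CTSK was called too, but was below background in horse serum and above it on 1 of the 2 low serum arrays, so it is given no fold. SGSH (1.68-fold, adjusted p = 0.00158) and CTSH (1.36-fold, adjusted p = 0.0309) were higher in horse serum. WIPI1 and CLN3 differed by 0.19 ± 0.22 and 0.01 ± 0.13 and were not called, but a second CLN3 probe was called higher in horse serum (0.41, adjusted p = 0.0298 by limma). LAMP2, CTSH, CTSK, CTSZ, GUSB, MANBA, NPC2 and ASAH1 lost their calls when some array was left out, and the count of 14 fell to 8 without the first horse serum array and to 9 without the second low serum array. With only the 4 arrays compared in the fit it was 9. The melanocyte-lineage sum was 11.09 to 11.30 in horse serum, below the low serum arrays, and its part in these differences was not tested.

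Cell density was compared in MEM with 10% FBS, between reference MEM at 90% and the arrays at 50% confluence. Of the 34 genes 13 were called higher and 8 lower at 90% confluence, against 10.3% and 9.42% of all probes and 24.7% and 29.3% of expressed symbols, and the median difference was 0.01. Higher at 90% confluence were CTSZ (4.32-fold, adjusted p = 3.68e-10), GUSB (3.04-fold, adjusted p = 1.03e-08), NPC2 (2.07-fold, adjusted p = 2.92e-06) and MAP1LC3B (1.86-fold, adjusted p = 0.00672 by limma), and GAA by at least 1.63-fold, its probe being not above background at 50% confluence. The bound sets each array at 50% confluence at its background. The remaining 8 were CTSA, CTSD, CTSH, GABARAPL1, GLB1, LAMP1, MCOLN1 and TPP1. Lower at 90% confluence were CTSB (2.70-fold, adjusted p = 9.99e-08), CTSC (2.34-fold, adjusted p = 4.39e-07), LAMP2 (2.02-fold, adjusted p = 1.01e-05), IDS, MANBA, SCARB2, ULK1 and ASAH1. CTSA, CTSD, CTSH, MAP1LC3B, SCARB2, ULK1 and ASAH1 lost their calls without 1 of the 4 arrays compared, with adjusted p from 0.0781 to 0.251. The summed melanocyte-lineage signal was 10.59 to 10.75 at 90% and 11.30 to 11.39 at 50% confluence, and KRT8 had means of 10.04 and 6.58. Of the summed markers SOX10 had means of 8.25 and 10.35 and DCT of 9.16 and 9.29, while TYR went the other way, at 7.83 and 7.02. The part of these markers in the result was not tested.

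The media comparisons at 10% FBS and 90% confluence shared the reference MEM arrays with each other and with those of serum and density, so their differences are given side by side only. In DMEM 14 of 34 genes were higher and 7 lower than in MEM, against 10.0% and 10.9% of all probes and 31.4% and 24.8% of expressed symbols. In RPMI-1640 12 were higher and 9 lower than in MEM, against 9.42% and 9.82% of all probes and 28.8% and 24.3% of expressed symbols. The medians were 0.15 and 0.01. The summed melanocyte-lineage signal moved with both comparisons, from 10.59 to 10.75 in reference MEM to 12.09 to 12.26 in DMEM and 11.95 to 11.97 in RPMI-1640. In these conditions in turn SOX10 had means of 8.25, 11.10 and 10.89, and DCT of 9.16, 10.45 and 10.24. TYR went the other way, at 7.83, 7.55 and 7.41. The part of these markers in the differences was not tested. CTSC was higher by 1.35 in DMEM and by 1.06 in RPMI-1640, CTSB by 1.34 and 1.46, and SGSH by 1.27 and 0.71. CTSZ was lower by 3.86-fold in DMEM and 4.00-fold in RPMI-1640, and GUSB by 3.35-fold and 2.46-fold. CLN3 was called in DMEM (1.19 ± 0.13, adjusted p = 5.40e-06 by limma) and not in RPMI-1640 (0.27 ± 0.13, adjusted p = 0.219). LAMP1, GAA and NAGLU lost their calls in DMEM when the first DMEM array or 1 of the reference MEM arrays was left out (adjusted p up to 0.156). CTSH, NEU1, PSAP, ASAH1, ULK1 and WIPI1 lost theirs in RPMI-1640 when some array was left out (adjusted p up to 0.575, for NEU1). Without the first RPMI-1640 array NEU1 differed by 0.16 in place of 0.41, and without the second ULK1 differed by 0.25 in place of 0.51 and MCOLN1 by -0.40 in place of -0.60.

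**Figure D4:**
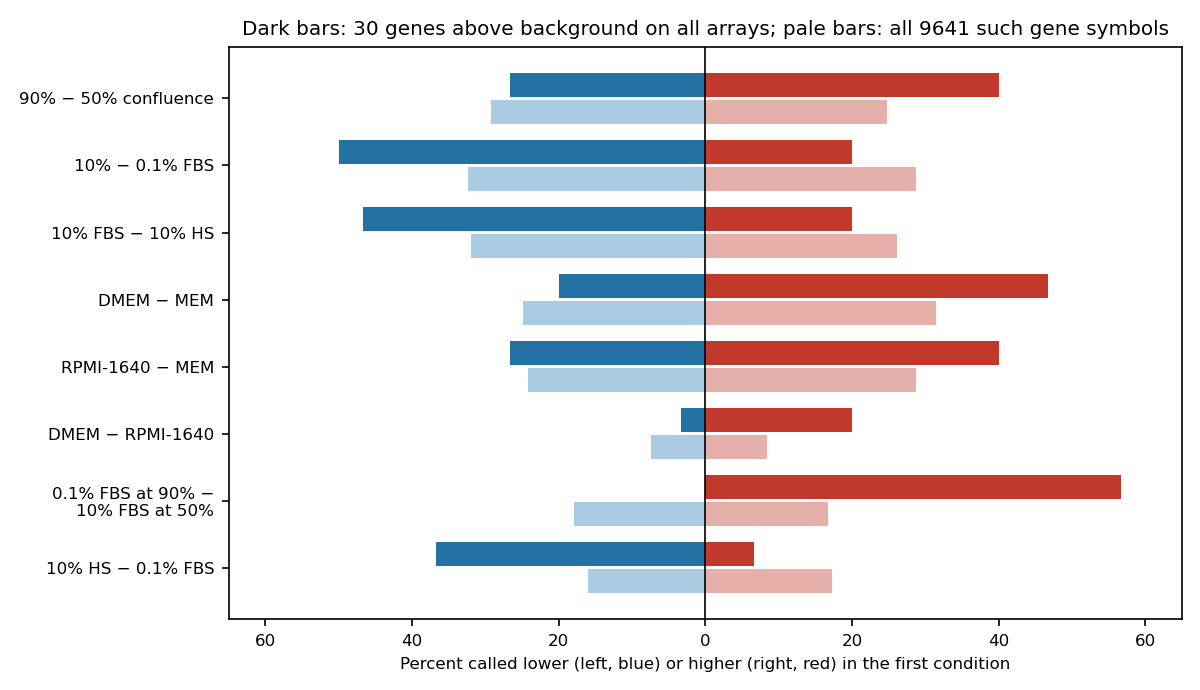
Percent of the 30 genes above background on all arrays (dark bars) and of all 9641 gene symbols above background on all arrays (pale bars) called higher (right, red) or lower (left, blue) in the first-named condition of each comparison. In low serum against 50% confluence 17 of the 30 were higher and 0 lower, beside 16.7% and 17.9% of symbols.

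DMEM against RPMI-1640 was the direct comparison of media without the mean of reference MEM, and few genes differed. In DMEM 6 of 34 genes were higher and 1 lower, against 2.35% and 2.98% of all probes and 8.34% and 7.48% of expressed symbols, with a median difference of 0.16 beside 0.01 over all symbols. CLN3 was 1.89-fold higher in DMEM (0.92 ± 0.13, adjusted p = 0.000687), MCOLN1 1.61-fold (adjusted p = 0.00355), CTSD 1.56-fold (adjusted p = 0.0111), NEU1 1.56-fold (adjusted p = 0.0107), SGSH 1.48-fold (adjusted p = 0.0237) and GLA 1.32-fold (adjusted p = 0.0239 by limma). GUSB was 1.36-fold lower (adjusted p = 0.0153). CLN3 alone kept its call under the removal of any array. The count of 7 fell to 1 without the first DMEM array and to 3 without the second, and the other calls had adjusted p up to 0.269. Without the second RPMI-1640 array the differences of SGSH and NEU1 were 0.34 and 0.39. Of the 7 genes with CACGTG in the window, shown above, CLN3, MCOLN1, CTSD and NEU1 were among the genes higher in DMEM, and CTSA, LAMP1 and GAA had differences of 0.33, 0.22 and 0.07 that were not called. The median was 0.64 for these 7 and 0.16 for the 17 genes whose window lacked the motif, of which 1 was higher and 1 lower. Among all expressed symbols with a window, 11.8% of the 786 with CACGTG and 8.56% of the 4951 without were higher in DMEM, with medians of 0.07 and 0.04. The split was made for all 8 comparisons, and the other 7 did not all resemble this one. In low serum against 50% confluence 4 of the 7 and 10 of the 17 genes were higher, with medians of 0.50 and 0.45. In DMEM against MEM 2 of the 7 were higher and 2 lower, beside 5 and 5 of the 17, and the medians were 0.12 and 0.01. In RPMI-1640 against MEM the medians were -0.37 and -0.25. For density they were 0.60 and 0.30, with 5 of the 7 higher and 0 lower, beside 8 and 4 of the 17. They were 0.10 and -0.13 for serum amount, 0.30 and 0.00 for serum kind, and 0.11 and -0.18 for horse serum against low serum. The genes with the motif thus had the higher median in every comparison but RPMI-1640 against MEM. These counts are a description without a test.

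**Figure D5:**
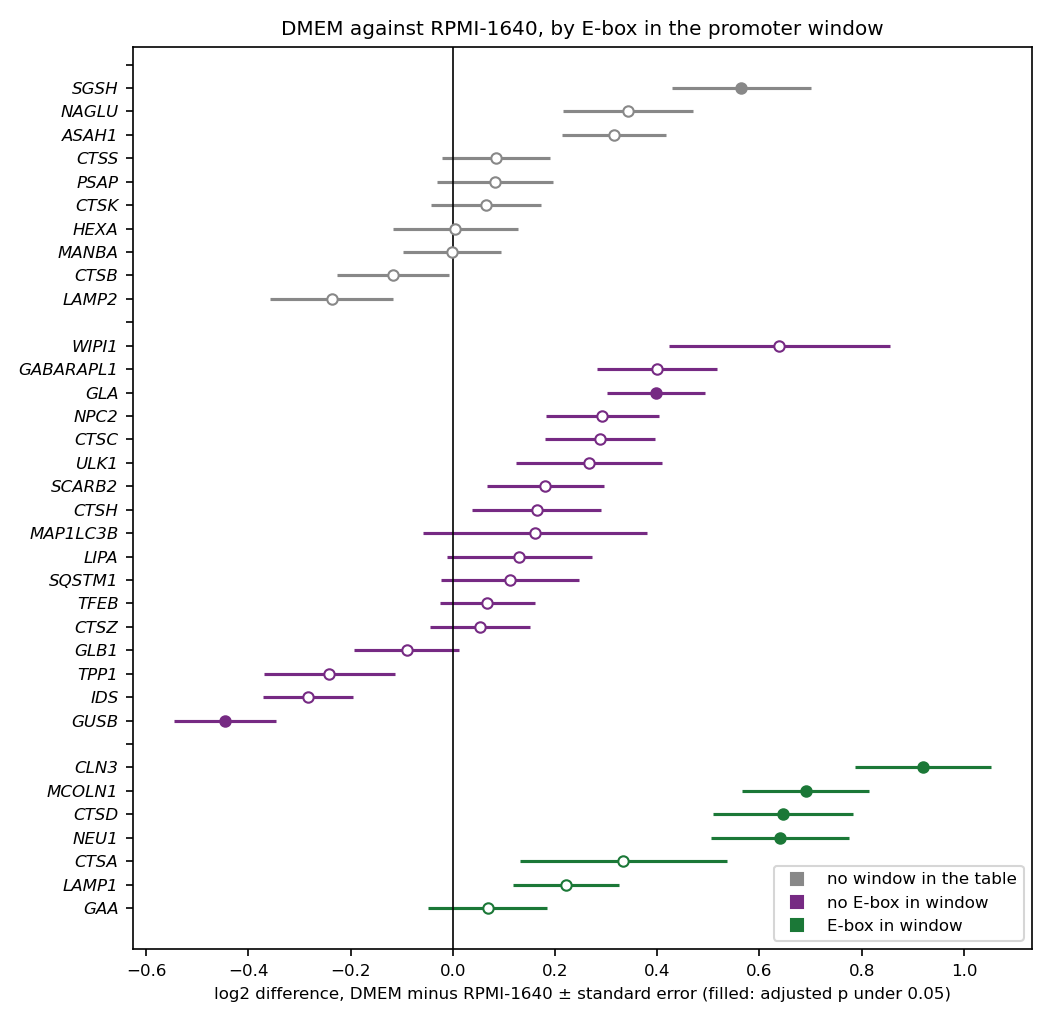
Log2 difference of each gene between DMEM and RPMI-1640 (points) with the standard error of the fit (bars), grouped by whether the RefSeq promoter window holds the E-box core, lacks it or is not in the table used; filled points are called at an adjusted p under 0.05. The 7 genes with an E-box run from 0.07 to 0.92, and the 17 without from -0.45 to 0.64.

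Other genes of the same pathways were read from 7 lists, with 157 of 158 genes measured. In low serum against 50% confluence 43 of the 157 were higher and 6 lower, with a median of 0.16, beside 5.43% and 5.39% of all probes and 16.7% and 17.9% of expressed symbols. The same shares are the background for each list. Unlike the expressed symbols, the list genes were not limited to those above background on all arrays. Lysosomal membrane proteins and transporters outside the 34 had 8 of 22 higher and 0 lower, among them NPC1, the membrane partner of NPC2 in cholesterol export (1.23 ± 0.13, adjusted p = 1.25e-05), and OSTM1, the partner of a lysosomal chloride transporter (1.28 ± 0.12, adjusted p = 3.21e-06 by limma). Proteins that sort enzymes to the lysosome had 6 of 18 higher and 0 lower, including GNPTAB, which makes the mannose 6-phosphate tag (1.33 ± 0.15, adjusted p = 2.65e-05), and IGF2R, a receptor for that tag (0.84 ± 0.15, adjusted p = 0.00124 by limma). The proton pump, or V-ATPase, had 7 of 18 higher and 1 lower. Lysosomal enzymes outside the 34 had 6 of 33 higher and 1 lower, with a median of 0.12. Genes of mTORC1 control and relatives of TFEB had 8 of 24 higher and 1 lower, with a median of 0.03. The core autophagy machinery had 4 of 33 higher and 2 lower, with a median of 0.08. Of 9 autophagy receptors 4 were higher, including OPTN (1.36 ± 0.14, adjusted p = 1.03e-05), and 1 was lower, BNIP3, a receptor for mitochondria (-1.21 ± 0.17, adjusted p = 0.000179 by limma).

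In 10% against 0.1% FBS, 50 of the 157 genes were lower and 33 higher, beside 10.9% and 11.5% of all probes and 32.4% and 28.7% of expressed symbols. The counts were not above the shares of expressed symbols, but not all of the 157 genes were above background, so the sets are unlike. ATP6V1B2, a subunit of the pump's ATP-driven part, had a difference of -2.46 ± 0.11 (adjusted p = 1.63e-10), while ATP6V0D1, of its membrane part, was 1.89 ± 0.15 higher in 10% FBS (adjusted p = 9.38e-08 by limma). ACP5, an acid phosphatase known from osteoclasts, had a difference of -2.06 ± 0.11 (adjusted p = 1.65e-09). VAMP8, which drives fusion of autophagosomes with lysosomes, was 3.43 ± 0.14 higher in reference MEM than in low serum (adjusted p = 5.57e-11 by limma). Its difference was 3.61 for 90% minus 50% confluence, 3.43 for FBS minus horse serum, -3.51 for DMEM minus MEM and -3.59 for RPMI-1640 minus MEM. Each of these VAMP8 differences includes the reference MEM mean. Its means elsewhere were 7.58 in low serum, 7.57 in horse serum, 7.49 in DMEM, 7.42 in RPMI-1640 and 7.39 at 50% confluence. DMEM, RPMI-1640 and 50% confluence also had 10% FBS, so VAMP8 was high in reference MEM only and not in 10% FBS in general. In DMEM against RPMI-1640, 25 of the 157 were higher and 5 lower, with a median of 0.15, beside 2.35% and 2.98% of all probes and 8.34% and 7.48% of expressed symbols. Among the higher were ATP6V0A1 and ATP6AP1 of the proton pump (0.93 and 0.83) and TSC1, an inhibitor of mTORC1 signaling (0.69). In horse serum against low serum 16 were higher and 35 lower, beside 5.52% and 6.03% of all probes and 17.2% and 16.0% of expressed symbols.

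Probes other than the brightest gave a check within the arrays. Of the 34 genes 11 had more than 1 probe, and 12 of the 20 further probes were above background on all arrays. For these, 66 calls of the brightest probe could be compared, of which 59 were called in the same direction by the further probe and 7 had the same sign without a call, 3 of them for the CTSB probe given above. The other 4 were LAMP2 in horse serum against low serum, CLN3 and GLB1 in low serum against 50% confluence, and IDS in 10% against 0.1% FBS. The other 8 further probes, each below background on some array, differed more from the brightest probe. Of 43 calls compared, 12 were called in the same direction, 13 had the same sign without a call, 16 had the opposite sign without a call and 2 were called in the opposite direction. Both opposite calls were of an IDS probe above background on 6 arrays, in 10% against 0.1% FBS (0.33, adjusted p = 0.0462) and in DMEM against MEM (-0.48, adjusted p = 0.00486 by limma). A second ASAH1 probe, above background on 11 arrays, had a difference of -0.12 in low serum minus 50% confluence (adjusted p = 0.664 by limma), where the brightest probe was called higher.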

How the data were processed

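RNA of monolayer cells had been hybridized by the authors to 12 bead arrays, 2 per condition, processed with BeadStudio per the labels. The deposited linear intensity table was already quantile-normalized by the authors with limma, and the deposited log2 table holds its logarithm. They differ by over 0.001 at 8 probes, none of the 34 genes but including probes of the markers VIM, CD44 and CDH1. The log2 table was used and not normalized again. No detection p-values were used here, so olfactory receptor probes set the background, and the number of arrays limits the precision. Sequencing depth does not apply. The members and lists were chosen with earlier results of these data known. Values on every array are given for the 12 genes with the largest range of condition means, TFEB and LAMP1, and other lists name at most 2 called genes per list and comparison, by size, with MITF also given in the TFEB account. limma 3.58.1 in R 4.3.3 fitted a mean per condition by lmFit and eBayes (6 residual and 8.96 prior degrees of freedom) for 8 comparisons and 2 F tests. Where a probe was below background on both arrays of a condition, the least fold was computed with each such array at its background. The scripts were tested on simulated data. Promoter sequences were RefSeq's, build GRCh38.p14. Alternatives were other tables, centerings, probe rules and filters, only the groups compared, a robust variance trend, a replicate block, a 2-fold limit, the t-test of the methods and leaving out each array.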

Additional observations from a re-analysis of the deposited data

How the results depend on the processing

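Counts of genes called are given in the order density, serum amount, serum kind, DMEM against MEM, RPMI-1640 against MEM, DMEM against RPMI-1640, low serum against 50% confluence, and horse serum against low serum. The methods' t-test called 4, 2, 6, 3, 0, 0, 0 and 0 genes at P under 0.001, and 0, 0, 1, 1, 0, 0, 0 and 0 after Benjamini-Hochberg. Its form over 6 conditions called 10 and over the 5 without reference MEM 0, with 23 and 0 after Benjamini-Hochberg. This test estimates each probe's spread from the arrays compared alone. A limit of 2-fold left 6, 7, 5, 8, 4, 0, 4 and 2 genes and was not applied to the F tests. With only the groups compared in the fit, horse serum against low serum had 9 calls in place of 14, and the cause was not tested. Leaving out 1 array gave 16 to 21, 21 to 23, 19 to 23, 18 to 22, 15 to 23, 1 to 9, 10 to 18 and 8 to 14 calls, and 27 to 30 and 18 to 25 in the F tests. MAP1LC3B turned direction with 1 low serum array. Its difference in serum amount ranged from -0.67 without the second to 0.40 without the first, and in horse serum against low serum from -0.47 without the second to 0.61 without the first. With the replicate number as a replicate block the counts were 21, 22, 21, 21, 23, 7, 17 and 13, with 29 and 23 in the F tests. Deviations of same-numbered arrays correlated at -0.06 to 0.13 over 15 pairs of conditions, 1 of them over 0.1. The labels do not say whether same-numbered arrays were handled together, and these correlations cannot settle it. Other tables, centerings, filters and the variance trend kept every count within 1.5 times its value. The other tables hold the values of the 34 genes within 0.001 of the log2 table, so they are no independent check. The arrays were already quantile-normalized, so centering could change little. With these tables and centerings every count stayed the same. Single differences were recomputed for the 14 genes with values given on every array. Of 2792 such differences, 2552 kept their side of the threshold, 221 lost and 17 gained a call. In 2 the direction turned with a call in at least 1 of the fits compared. Changes of sign without a call in either fit were counted among the 2552. With 2 arrays per condition and signals near background, GAA, CTSK, CTSS and TFEB are the least well measured.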
